A study of Mus musculus with 12 samples.

Results

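The comparison described here sets the skin of 4 Merkel het CLE mice against the skin of 4 littermate mice, which are 8 of the 12 libraries of the series, chosen by their group label. CLE stands for cutaneous lupus erythematosus, an autoimmune skin disease of which these mice are a model. All mice were female and had received OT2 cells. These CD4 T cells all bear 1 transgenic receptor that recognises a peptide of ovalbumin, and they had been skewed to the T helper 2 (Th2) state during 10 days of culture. Frozen skin was taken when disease first showed, after about 3 to 4 weeks, and skin of the injected littermates came from matching sites. Each library is 1 mouse, so the errors below describe the spread between mice.

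All 4 Merkel het CLE mice carried both parts of the autoantigen system, rtTA+ and K5TGO+, and were Atoh1flox/wt K14Cre+. Atoh1 is the transcription factor that Merkel cells, the touch receptors of the epidermis, need to form, and K14Cre deletes floxed genes in keratin 14-expressing epithelium. The labels give these mice as having lost part of their Merkel cells. Merkel het CLE 1 and 2 were TLR9wt/wt, with skin disease scores of 3 and 2, and Merkel het CLE 3 and 4 were TLR9ko/ko, with scores of 2 and 2.5. The littermates could not express the autoantigen, and all had a score of 0. Littermate 1 was rtTA-K5TGO-TLR9ko/wt and Atoh1flox/flox K14Cre-. Littermate 2 was rtTA-K5TGO+TLR9ko/ko and Atoh1wt/wt K14Cre-. Littermate 3 was rtTA-K5TGO+TLR9ko/ko and Atoh1flox/wt K14Cre+, with a partial loss of Merkel cells. Littermate 4 was rtTA+K5TGO-TLR9ko/ko and Atoh1flox/flox K14Cre+, and is described as having none left. The groups therefore differed in autoantigen, disease, TLR9 genotype and Merkel cell genotype together, and what each contributed cannot be told apart in this comparison. Another group, 4 CLE mice of the parental strain with the autoantigen, TLR9ko/ko and intact Merkel cells, entered the fit for its estimate of spread and is compared near the end.

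Skin with an autoimmune T cell attack draws in white blood cells through chemokines, small secreted proteins that bind receptors on passing neutrophils, monocytes and lymphocytes. Keratinocytes and phagocytes answer with cytokines of the interleukin-1 and interleukin-6 families, antimicrobial peptides and lipid mediators. T helper cells are themselves sorted by cytokines and transcription factors: interleukin-12 and its receptor favour the interferon-gamma-producing Th1 state, while GATA3 and IRF4 are needed for the Th2 state. GATA3 is also a factor of hair follicle and epidermal cells, so in whole skin its transcript is not tied to T cells.

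The signal of each gene is a count of its barcoded probe, multiplied by 1 factor for the whole library, and is given in units of that scaled count. The log2 difference is the mean of log2(value + 1) in Merkel het CLE minus that in littermates, ± its moderated standard error from limma with n = 4 per group. A gene passed when its adjusted p was under 0.05 over the 451 tested genes. The factor ran from 0.715 to 0.979 in the Merkel het CLE libraries and from 0.988 to 1.21 in littermates 1, 3 and 4, but it was 4.04 in littermate 2, whose gene counts were 99297 against 319043 to 682046 in the other 7. The background threshold, the mean plus 2 SD of the library's 8 negative controls, was therefore 116 units in littermate 2 and 17.6 to 28.0 units in the other 7. The panel held no probe for Atoh1, Krt20 or Sox2, so the loss of Merkel cells could not be checked. Of the epithelial list, 8 of 11 tested genes were above background in all 8 libraries, among them Itga6, the integrin of basal keratinocytes.

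Of the 451 tested genes, 53 passed (11.8%): 22 were higher in Merkel het CLE skin (4.88%) and 31 were lower (6.87%). Without adjustment, 134 genes (29.7%) had a p under 0.05. The rises were the larger, with a median log2 difference of 2.89 and a range from 0.97 to 7.11, against a median of -1.49 among the falls and 0.01 over all tested genes. The rises also varied more between mice, with a median log2 SD of 1.09 in Merkel het CLE skin, against 0.44 there for the falls. Adjusted p ran from 0.00443 to 0.0468, with 20 of the 53 genes over 0.04. Of the 53 genes, 51 had no overlap between the 2 groups, as did 138 of all tested genes (30.6%).

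The number that passed was sensitive to leaving out a mouse. Leaving out 1 littermate left 5, 4, 2 and 5 genes for littermates 1 to 4, of which 0 were rises. Leaving out Merkel het CLE 1, 3 or 4 left 7, 9 and 15 genes, with 0, 1 and 5 rises, and without Merkel het CLE 2 there were 59. In these 8 fits, 105 to 146 genes had an unadjusted limma p under 0.05, against 134 as reported. The CLE mice enter only through the spread, and leaving out CLE 1, 2 or 3 gave 81, 30 and 94 genes. In each of the fits without 1 of the 8 mice compared, the 22 rises stayed positive and the 31 falls stayed negative. For 51 of the 53 genes the groups did not overlap, so leaving out a mouse could not change their sign. Both Il12rb2 and Irf4 passed in each of these 8 fits.

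**Figure D1:**
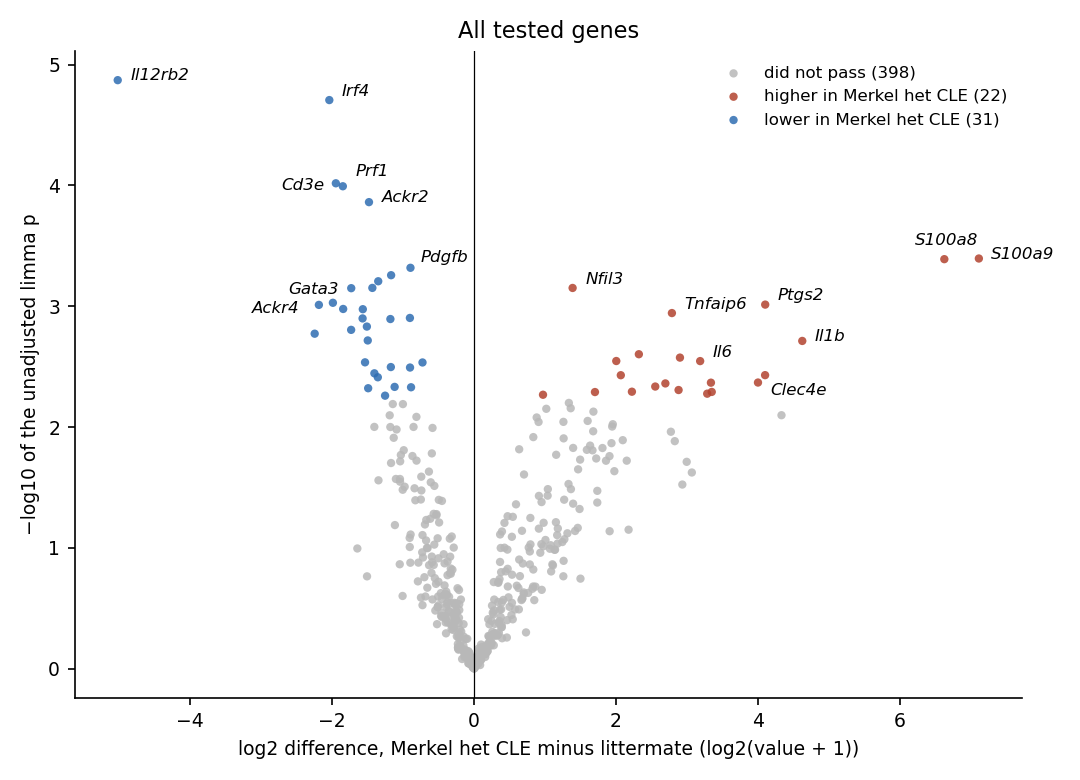
Each point is 1 of the 451 tested genes, with its log2 difference (Merkel het CLE minus littermate, on log2(value + 1)) on the x axis and −log10 of the unadjusted limma p on the y axis. Red points are the 22 genes that rose and blue points the 31 that fell. The rises reach 7.11 and the falls reach -5.02, while the smallest p-values belong to falls.

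The stretches just before the start sites of 6 of the 10 largest rises and of the largest fall are shown as examples. Other large rises, among them Cxcr2, Clec4e and Il19, are not shown. The 2 rises in which a kappa-B-like match was found, Cxcl1 and Il6, are both among those shown. They are from RefSeq on GRCm38.p6 and run 5′ to 3′ on the gene's own strand, ending at the start site. S100a9 lies at chr3:90695722-90695821 on the minus strand, S100a8 at chr3:90668971-90669070 on the plus strand, Il1b at chr2:129371140-129371239 on the minus strand and Ptgs2 at chr1:150099931-150100030 on the plus strand. Cxcl1 lies at chr5:90891145-90891244 on the plus strand, Il6 at chr5:30012994-30013113 on the plus strand and Il12rb2 at chr6:67376189-67376288 on the minus strand. Capitals mark a match, on either strand, to 1 of 4 short motifs: kappa-B-like, ISRE-like, C/EBP-like (TTGCNNAA) and AP-1-like (TGANTCA).
S100a9: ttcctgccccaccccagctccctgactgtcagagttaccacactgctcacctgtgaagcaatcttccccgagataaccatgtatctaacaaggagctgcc
S100a8: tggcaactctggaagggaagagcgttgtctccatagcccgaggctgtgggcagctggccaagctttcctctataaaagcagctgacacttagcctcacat
Il1b: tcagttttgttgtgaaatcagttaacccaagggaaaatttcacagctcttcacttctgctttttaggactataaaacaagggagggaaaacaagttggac
Ptgs2: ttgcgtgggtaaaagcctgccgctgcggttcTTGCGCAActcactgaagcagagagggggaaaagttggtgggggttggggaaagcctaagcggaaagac
Cxcl1: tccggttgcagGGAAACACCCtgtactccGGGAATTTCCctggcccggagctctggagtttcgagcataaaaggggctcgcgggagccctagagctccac
Il6: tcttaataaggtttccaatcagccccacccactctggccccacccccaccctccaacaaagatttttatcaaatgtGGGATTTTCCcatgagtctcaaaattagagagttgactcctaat
Il12rb2: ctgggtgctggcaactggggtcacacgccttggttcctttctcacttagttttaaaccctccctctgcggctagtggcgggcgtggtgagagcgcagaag
The capitals in Il6 and Cxcl1 are kappa-B-like, and those in Ptgs2 are C/EBP-like. The stretches of S100a9, S100a8, Il1b and Il12rb2 held no match.

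RefSeq windows of 300 bases around the start site, most of them before it, were found for 17 of the 22 rises and 23 of the 31 falls. A kappa-B-like match stood in 2 of the 17 (Cxcl1 and Il6) and in 2 of the 23 (Ifngr2 and Traf2), against 1.89% of all 27025 genes with a window. A C/EBP-like match stood in 5 of the 17 (Clec4e, Fcer1a, Il6, Ptgs2 and S100a9) and in 3 of the 23, against 12.2%. An AP-1-like match stood in 3 of the 17 (Il6, Pla2g2e and Tnfaip6) and in 0 of the 23, against 8.97%. An ISRE-like match stood in Il19 and in Mapk14, against 3.99%. These matches are letters in a window, and no binding was measured.

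Neutrophil genes held the largest rises. S100a9 and S100a8 encode the subunits of calprotectin, a calcium-binding alarmin abundant in neutrophils and in inflamed keratinocytes. S100a9 read 21736, 2970.3, 23527 and 5753 units in Merkel het CLE 1 to 4 and 107, 64.7, 116 and 27.8 units in littermates 1 to 4. S100a8 read 38203, 6581, 24557 and 9149 units in the Merkel het CLE mice and 219, 137, 317 and 60.5 units in the littermates. The groups lay far apart for both genes, and within Merkel het CLE skin mice 1 and 3 stood above mice 2 and 4. The log2 differences were 7.11 ± 1.47 and 6.62 ± 1.37 (adjusted p = 0.0246 for both). Both lost their call without any 1 of the littermates or without Merkel het CLE 1 or 3, and kept it without Merkel het CLE 2 or 4.

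Cxcr2, the receptor through which neutrophils follow CXC chemokines, read 429, 147, 492 and 241 units in the Merkel het CLE mice and 16.8, 48.5, 13.2 and 6.05 in the littermates, none of which exceeded its background threshold. Its log2 difference was 4.10 ± 1.14, and it was at least 3.12 with the littermates set at their thresholds. Csf3r, the receptor for the growth factor G-CSF, rose by 2.88 ± 0.84, from a range of 23.0 to 72.8 units to 117.5 to 606 units. Of the 5 tested neutrophil genes, 4 rose, against 4.88% of all tested genes. Ncf4, a subunit of the phagocyte oxidase, did not pass (0.95 ± 0.52). Cxcr1, Camp and Ltf exceeded background in fewer than 4 of the 12 libraries and were not tested. Cxcr1 and Camp did so in 2 Merkel het CLE mice and 0 littermates, and Ltf in 0 libraries. The list's summed signal was 252 to 657 units in littermates and 10045 to 61355 units in Merkel het CLE skin, where S100a8 and S100a9 held most of it. In whole skin, more cells of a type and more RNA per cell cannot be told apart, for these genes and for those below.

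**Figure D2:**
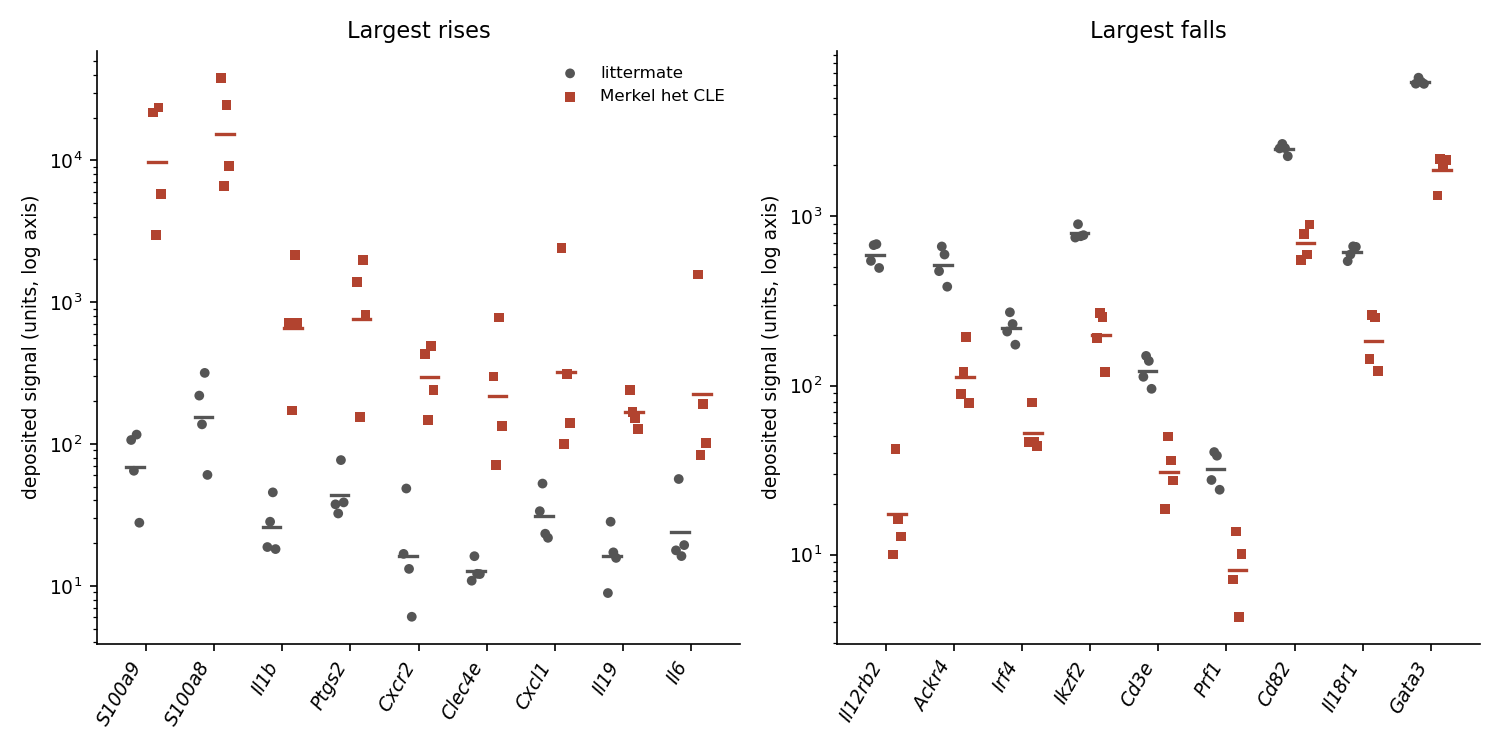
Deposited signal (units, log axis) in each of the 4 littermate libraries (grey circles) and the 4 Merkel het CLE libraries (red squares) for 9 of the largest rises (left) and 9 of the largest falls (right), with bars at the mean of log2(value + 1) turned back to units. Genes were taken only from those without overlap, so each separates the groups by choice. The red points of the rises spread more widely than those of the falls.

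Among chemokines, 3 that attract neutrophils or monocytes rose. Cxcl1, a ligand of Cxcr2, read 2399, 99.9, 310.2 and 141 units in Merkel het CLE 1 to 4 and 33.6, 52.6, 23.3 and 21.8 in littermates 1 to 4, a difference of 3.34 ± 0.95 (adjusted p = 0.0463). Merkel het CLE 1 held most of the signal, yet the lowest Merkel het CLE mouse was still above the highest littermate. The monocyte chemokines Ccl7 and Ccl12, ligands of Ccr2, rose by 2.55 ± 0.74 and 2.07 ± 0.58. Of 12 tested monocyte-attracting genes these 2 rose, 0 fell, and 9 had positive differences, with a list median of 1.61. Over all 451 tested genes, 4.88% rose and 230 had positive differences. Ccl3 (3.07 ± 1.19) and Ccl4 (2.93 ± 1.19) had larger estimates but did not pass: their values were highest in Merkel het CLE 3, at 1384 and 619 units, and ran down to 62.7 and 28.6 units in the group. Of the 3 tested neutrophil-attracting genes, Cxcl3 (2.18 ± 1.10) and Ppbp (0.69 ± 0.43) did not pass.

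Macrophage and monocyte genes were all estimated as higher, but 1 passed. Positive estimates were found for 230 of all 451 tested genes, and 4.88% rose. Lilrb4a, an inhibitory receptor of myeloid cells, rose by 2.90 ± 0.77, from 43.6 to 86.1 units in littermates to 210 to 1105 units. The other 15 of 16 tested members did not pass. The list median was 1.39, and 1.06 after centring each library on its median. Trem1, an amplifying receptor of neutrophils and monocytes, had an estimate of 4.33 ± 1.37 (adjusted p = 0.0591), reading 248, 44.1, 741 and 249.7 units against 5.93, 20.2, 7.09 and 9.68 in the littermates, all of them below background. Cd14, the co-receptor for bacterial lipopolysaccharide, had an estimate of 3.00 ± 1.11. The scavenger receptor Msr1 (1.95 ± 0.64) did not pass either. Clec4e, the receptor Mincle that binds fungal and bacterial glycolipids, read 299, 71.5, 778 and 134 units against 10.9, 16.2, 12.2 and 12.1 in the littermates, all below background. It rose by 4.00 ± 1.14, and by at least 2.69 with the littermates at their thresholds.

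Cytokines of the interleukin-1 and interleukin-6 families rose in single members. Il1b, the cytokine matured by inflammasomes, read 717, 172, 2151 and 711 units in the Merkel het CLE mice and 18.8, 28.3, 45.6 and 18.1 in the littermates, of which 1 was above background. The difference was 4.62 ± 1.17 (adjusted p = 0.0323), and Merkel het CLE 2 was again the lowest of its group. Il6, a cytokine of acute inflammation, read 1564, 83.2, 191 and 102 units against 17.8, 56.6, 16.2 and 19.4 in the littermates, all below background. Its difference was 3.18 ± 0.85, and at least 2.73 with the littermates at their thresholds. Merkel het CLE 1 stood far above the other mice of its group. Il19, an interleukin-10 relative made by keratinocytes and myeloid cells, was more even, with 239.7, 168, 151 and 127 units in the Merkel het CLE mice and 8.89, 28.3, 17.2 and 15.7 in the littermates. It rose by 3.28 ± 0.97, and by at least 2.30 with the littermates at their thresholds.

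On the receptor side of the same families, 2 chains fell. Il6ra, the chain that binds interleukin-6, fell by 1.497 ± 0.38, from 1594 to 1900 units in littermates to 477 to 688 units. Il18r1, the binding chain of the interleukin-18 receptor, fell by 1.73 ± 0.43. Of 18 tested genes of the interleukin-1 family and inflammasome, Il1b rose, Il18r1 fell and 16 did not pass. The share that passed is near the 11.8% over all tested genes. The list median of 0.20 turned to -0.14 after median centring. Of 11 tested genes of the families of interleukins 6, 10 and 20, Il6 and Il19 rose, Il6ra fell and 8 did not pass. Socs3, a feedback inhibitor induced by interleukin-6 signals, had an estimate of 1.68 ± 0.52 (adjusted p = 0.057).

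Lipid mediator, matrix and antimicrobial genes added further rises. Ptgs2, the inducible cyclooxygenase of prostaglandin synthesis, read 1388, 155, 1970.1 and 809 units against 37.5, 32.4, 77.0 and 38.7 in the littermates, a difference of 4.10 ± 0.95. Pla2g2e, a secreted phospholipase found in hair follicles, rose by 2.32 ± 0.61. Unlike the genes above, its highest value was in Merkel het CLE 4, at 618 units, with 17.8, 56.6, 39.5 and 31.5 in the littermates. Tnfaip6, a hyaluronan-binding protein induced by tumour necrosis factor, rose by 2.79 ± 0.66, from 60.7 to 69.1 units to 163 to 1110 units. Defb14, an epithelial defensin, read 1587, 484, 1922 and 2165 units against 209, 142, 258 and 234 in the littermates and rose by 2.69 ± 0.77. It was the 1 of 11 tested epithelial genes that passed, where 11.8% of all tested genes passed. It was above background in all 8 libraries. Fcer1a, the IgE-binding chain of mast cells and basophils, rose by 2.22 ± 0.65, while Kit, the growth factor receptor of mast cells and melanocytes, did not pass (0.79 ± 0.45).

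The remaining rises named here were regulators. Nfil3, a basic leucine zipper transcription factor, read 1058, 605, 797 and 809 units against 368, 364, 251 and 259 in the littermates. It rose by 1.39 ± 0.31, with all 8 libraries above background. Bcl3, a nuclear IκB protein, rose by 2.00 ± 0.54. Sting1, the adaptor of cytosolic DNA sensing, rose by 1.70 ± 0.50. Icosl, the ligand of the T cell co-stimulator ICOS, rose by 0.97 ± 0.29, from 168 to 224 units in littermates to 318 to 411 units. Only Icosl, Nfil3, Defb14 and S100a8 among the 22 rises were above background in all 8 libraries.

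The largest fall was that of Il12rb2, the signalling chain of the interleukin-12 receptor. It read 10.0, 42.1, 16.3 and 12.8 units in Merkel het CLE 1 to 4 and 545, 675, 685 and 495 in littermates 1 to 4. All littermates were well above background and only Merkel het CLE 2 was above it in the other group. The difference was -5.02 ± 0.71 (adjusted p = 0.00443), and -4.55 with the low libraries at their thresholds. Leaving out any 1 of the 8 libraries kept the Il12rb2 log2 difference between -5.43 and -4.77, past the threshold each time. In the TLR9ko/ko libraries alone, 2 against 3 mice, it was -5.31. Without the K14Cre+ littermates it was -5.05. In limma these smaller fits passed 0 genes each, with 77 and 85 at an unadjusted p under 0.05.

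Other genes of the Th1 and interleukin-12 axis fell with it. Il12a, the p35 subunit of interleukin-12, read 10.7, 21.5, 7.73 and 13.7 units against 53.3, 40.4, 24.3 and 41.1 in the littermates, of which 3 were above background. It fell by 1.54 ± 0.41, and the difference was -0.78 with the Merkel het CLE libraries at their thresholds. Ifngr2, the signalling chain of the interferon-gamma receptor, fell by 0.90 ± 0.25, with all 8 libraries above background. Counting Il12rb2 and Il18r1, 4 of 10 tested genes fell, 0 rose, and the list median was -0.25, where 6.87% of all tested genes fell. The interferon-gamma gene itself (Ifng), Tbx21, Stat4 and Il12rb1 exceeded background in 0 of the 8 libraries. Il18rap, the accessory chain of the interleukin-18 receptor, had a positive estimate (1.27 ± 0.55) and did not pass.

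Several transcription factors known from lymphocytes fell. Irf4 read 46.5, 79.3, 46.4 and 43.9 units in the Merkel het CLE mice and 208, 271, 231 and 174 in the littermates, a difference of -2.04 ± 0.30 (adjusted p = 0.00443). Gata3 read 1329, 2170.5, 2011 and 2148 units against 6075, 6591, 6228 and 6061 in the littermates and fell by 1.73 ± 0.38. Ikzf2, the Ikaros family factor Helios, read 191, 267, 255 and 121 units against 749, 898, 763 and 773 and fell by 1.99 ± 0.46. Each of the 3 genes was above background in all 8 libraries, and the groups did not overlap. Nfatc1, a calcium-regulated factor of T cells and hair follicle stem cells, fell by 1.18 ± 0.28, and Stat5b, which carries interleukin-2 and growth hormone signals, fell by 1.17 ± 0.25. Of 24 tested factors of lymphoid development, 5 fell, 1 rose (Nfil3) and 18 did not pass, with a median of -0.37. That list does not hold Stat5b, and not all of its falls are named here. Over all tested genes, 11.8% passed. Runx1 (1.34 ± 0.40, adjusted p = 0.052) and Ahr (-1.14 ± 0.35, adjusted p = 0.052) came closest to the threshold from opposite sides.

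Of 11 tested Th2 genes, Gata3 and Irf4 fell, 0 rose and 9 did not pass, with a median of -0.02, where 11.8% of all tested genes passed. Il4ra, the shared receptor chain for interleukin-4 and interleukin-13, had a positive estimate of 1.36 ± 0.42 (adjusted p = 0.0549), and Ccr4, a chemokine receptor of Th2 and skin-homing T cells, a negative one of -1.40 ± 0.46. Il13 (-0.75 ± 0.63) did not pass. The cytokine genes Il5, Il9 and Il25 were above background in 0 of the 8 libraries, and Il4 in 2, Merkel het CLE 3 and 4. At this depth Il5, Il9 and Il25 were thus not detectable in either group, and Il4 was not detectable in littermates.

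Cd7 and 3 chains of the T cell receptor complex fell, while the other tested genes of the T cell list did not pass. Cd3e read 18.6, 49.9, 36.1 and 27.4 units in the Merkel het CLE mice and 113, 149.6, 139.7 and 95.6 in the littermates, a difference of -1.95 ± 0.34 (adjusted p = 0.0114). Cd247, the zeta chain, read 37.9, 49.9, 43.8 and 51.2 units against 106, 190.0, 123 and 96.8 and fell by 1.43 ± 0.32. Cd3d fell by 1.25 ± 0.37, with values that overlapped between the groups, and Cd7, a surface protein of T and natural killer cells, fell by 1.40 ± 0.39. These values lie near background: littermate 2, whose threshold was the highest, gave the highest value of Cd3e and Cd247, and Cd3e in Merkel het CLE 1 was below its threshold. Cd4, the co-receptor that the transferred cells carry, was estimated at 0.30 ± 0.43 (95% interval -0.65 to 1.24), and Cd8a and Cd8b1 were below background in all 8 libraries. Thy1, a surface protein of T cells and fibroblasts, had a positive estimate of 1.63 ± 0.57. Of 15 tested members 4 fell, 0 rose and 11 did not pass, and the median was -0.45, where 6.87% of all tested genes fell. The summed signal of the list went the other way, at 2654 to 4160 units in Merkel het CLE skin and 1681 to 2321 in littermates. Thy1 alone read 1238 to 3304 and 496 to 782 units.

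**Figure D3:**
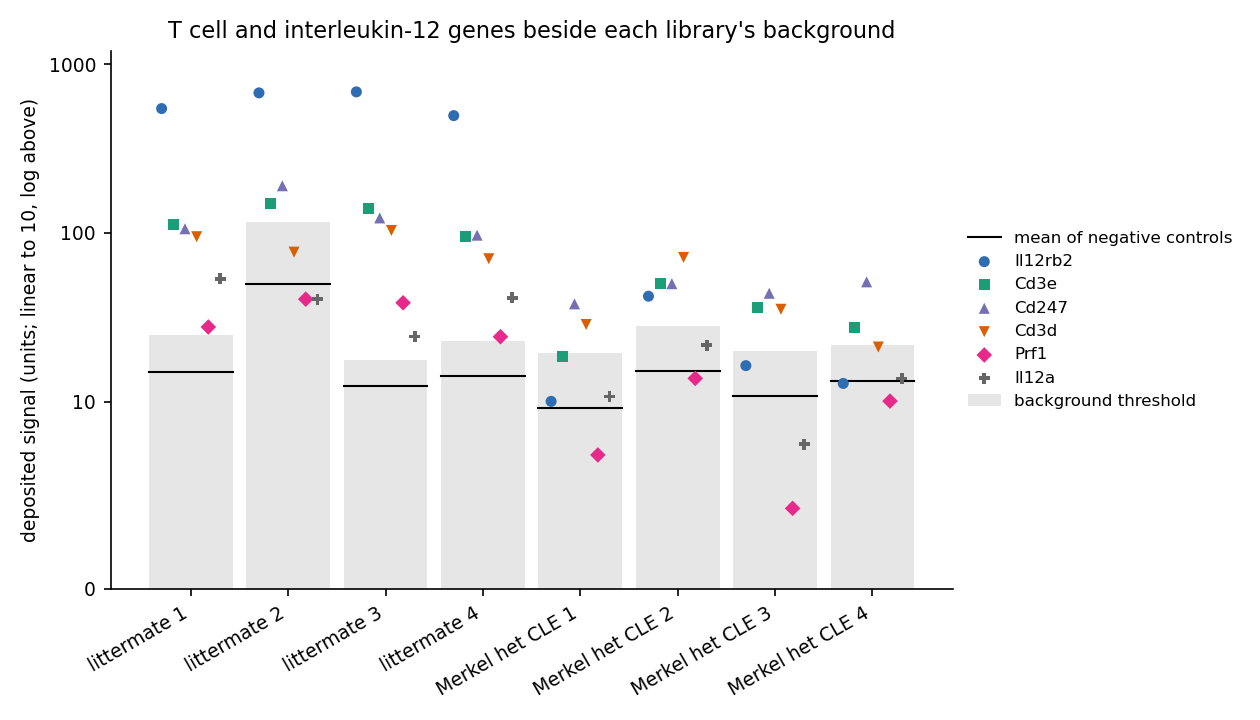
Deposited signal (units; the axis is linear up to 10 and logarithmic above) of 6 T cell and interleukin-12 genes in the 4 littermate and 4 Merkel het CLE libraries. Grey columns reach the library's background threshold and black lines mark the mean of its negative controls: Il12rb2 stands above the threshold in all littermates, while Prf1 and Il12a lie within the grey in every Merkel het CLE library and in littermate 2.

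Among cytotoxic and natural killer cell genes, 2 fell. Prf1, the pore-forming protein perforin, read 7.15, 13.7, 4.30 and 10.1 units in the Merkel het CLE mice, all below background, and 27.6, 40.4, 38.5 and 24.2 in the littermates, of which 3 were above. The difference was -1.85 ± 0.33 (adjusted p = 0.0114), and -0.52 with the Merkel het CLE libraries at their thresholds. Xcl1, a chemokine of natural killer and CD8 T cells, fell by 1.49 ± 0.43, with overlapping values. Of 13 tested members the other 11 did not pass, 12 had negative estimates, and the median was -0.51. Over all 451 tested genes, 11.8% passed and 221 had negative estimates. Only 4 of the 13 were above background in all 8 libraries, and their list median was -0.36 after background subtraction. Gzmb, a granzyme, was estimated at 0.19 ± 0.51.

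Scavenging receptors, growth factors and surface proteins made up much of the rest of the falls. Ackr4, which removes the chemokines CCL19, CCL21 and CCL25, read 88.7, 120.4, 193 and 78.7 units against 474, 663, 594 and 384 in the littermates and fell by 2.19 ± 0.51. Ackr2, which removes inflammatory CC chemokines, read 60.8, 67.5, 51.5 and 40.2 units against 136, 190.0, 153 and 137 and fell by 1.48 ± 0.27 (adjusted p = 0.0124). The other 10 tested genes of the chemokine receptor list, which does not hold Cxcr2, did not pass, among them Cxcr4 (1.68 ± 0.56). Among all tested genes, 6.87% fell. The groups did not overlap for either scavenging receptor, and all 8 libraries were above background.

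Cd82, a tetraspanin, read 554, 786, 595 and 894 units against 2518, 2677, 2529 and 2264 in the littermates and fell by 1.84 ± 0.43. Il18r1, described above, read 143, 260.4, 253 and 122 units against 543, 594, 664 and 659.6. In both genes the highest Merkel het CLE mouse was well below the lowest littermate. Tgfb2, a growth factor of skin and hair follicles, read 74.4, 111.6, 79.0 and 70.4 units against 286, 263, 253 and 195 and fell by 1.57 ± 0.38. Of 10 tested genes of its family and their mediators it was the 1 that passed, where 11.8% of all tested genes passed. Tgfb1 had an estimate of the opposite sign (0.88 ± 0.28, adjusted p = 0.0596).

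Further falls covered several pathways with 1 or 2 genes each. Mbp, the myelin basic protein gene, fell by 1.57 ± 0.37. Cd55, which protects cells from complement, fell by 1.36 ± 0.38, the 1 of 17 tested complement genes that passed. Among all tested genes, 11.8% passed. Mr1, which presents vitamin B metabolites to innate-like T cells, fell by 1.35 ± 0.29. Pdgfb, a growth factor for pericytes, fell by 0.90 ± 0.19, and Cd109, a keratinocyte surface protein that binds TGF-β, fell by 0.90 ± 0.22. The tumour necrosis factor relatives Tnfsf18 and Tnfsf15 fell by 1.17 ± 0.32 and 1.12 ± 0.32, close to background in both groups. Traf2, an adaptor of tumour necrosis factor receptors, fell by 0.89 ± 0.26, and Mapk14, the stress kinase p38α, fell by 0.73 ± 0.20. A probe that the reference table gives no symbol, NM_001001303.1, fell by 1.51 ± 0.37. It read 13496 to 29570 units in Merkel het CLE skin and 43436 to 60715 units in littermates. Its littermate values were above those of every reference gene. Without a symbol it was tested and counted among the falls, not treated as a reference gene.

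**Figure D4:**
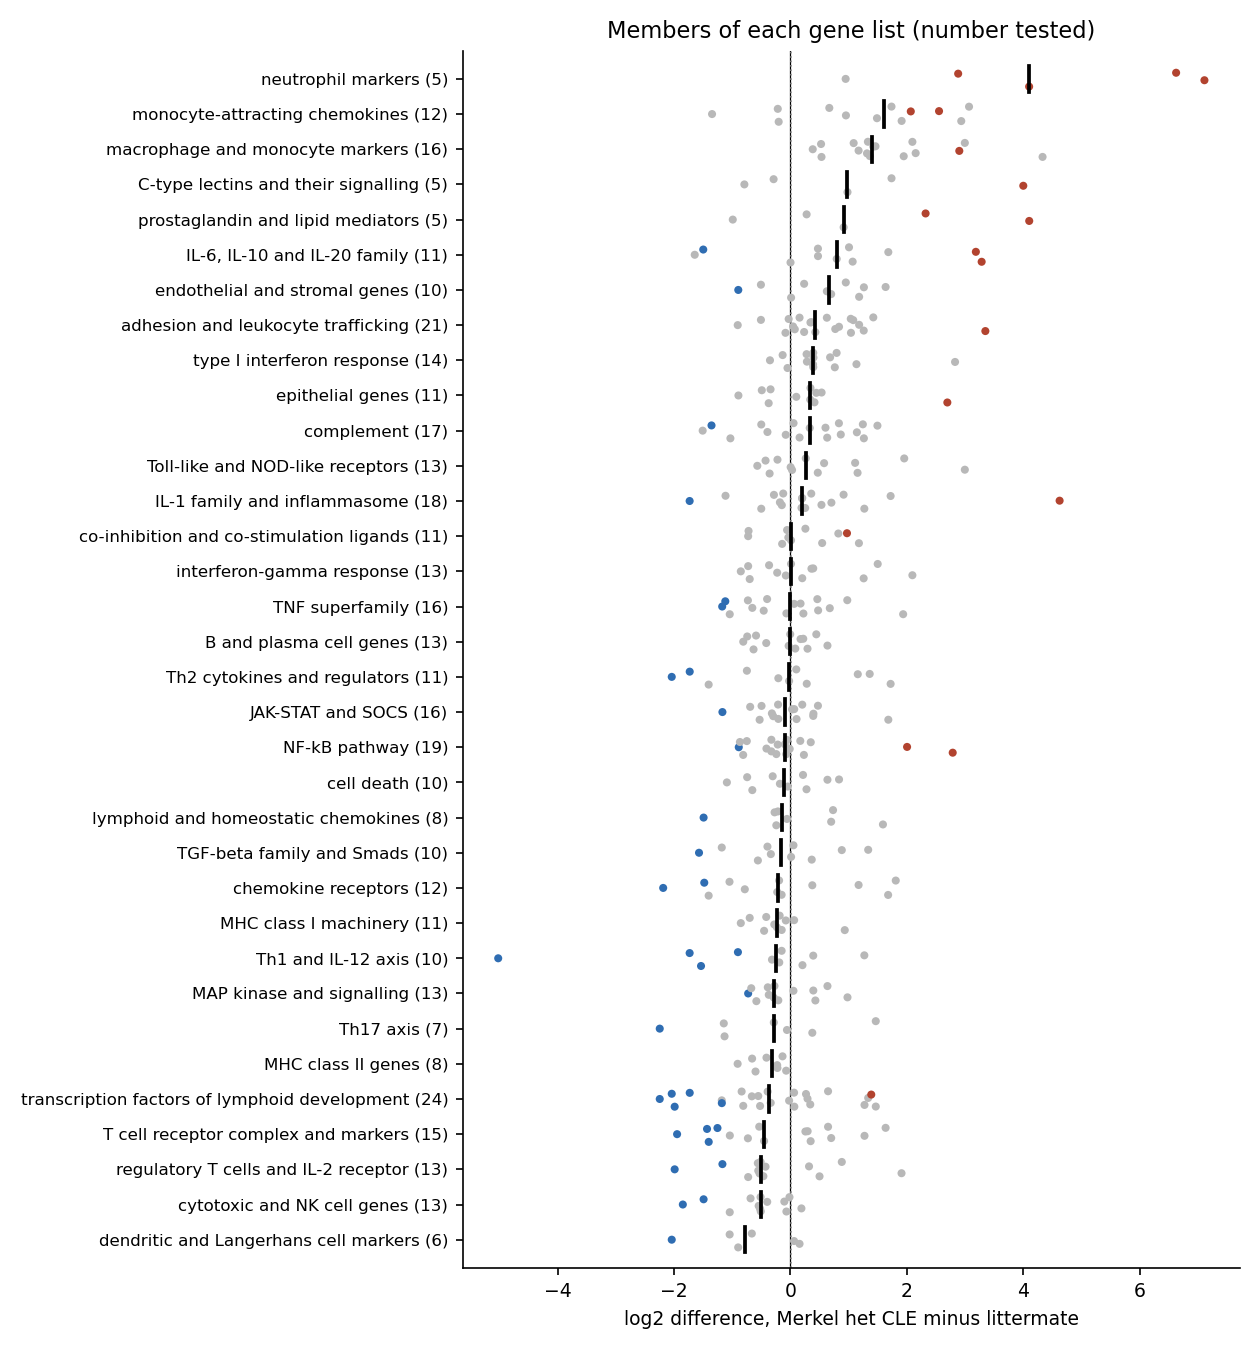
Log2 difference of each tested gene (x axis, Merkel het CLE minus littermate), by list, with the number tested in brackets and a black bar at the list median. Red points rose, blue points fell and grey points did not pass. Neutrophil genes lie farthest right, with a median of 4.10, and dendritic and Langerhans cell genes farthest left, with a median of -0.78.

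Several immune programmes had no gene that passed, where 11.8% of all tested genes passed. In lists of 8 to 14 tested genes, 0 is close to that share. None of 14 type I interferon response genes passed. Their median was 0.39, and 0.05 after median centring. Ifitm1 had the largest estimate among them (2.83 ± 0.97, 95% interval 0.71 to 4.95), with 1278, 155, 1040.5 and 357 units against 55.3, 121, 79.0 and 52.0. Ifna1, Ifna2 and Ifnb1 were below background in the littermates, and Ifnb1 was above it in 1 Merkel het CLE mouse. None of 13 interferon-gamma response genes passed either. The chemokines Cxcl9 and Cxcl10, which recruit T cells through Cxcr3, had estimates of 1.499 ± 1.05 (95% interval -0.79 to 3.79) and 1.26 ± 0.87 (-0.63 to 3.14). Both intervals include 0 and rises of over 3 on the log2 scale. Cxcl10 read 145, 302, 301 and 112.5 units against 118, 97.0, 71.9 and 53.2, with overlapping groups.

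All 8 MHC class II genes had negative estimates and none passed, with a median of -0.32. Negative estimates were found for 221 of all 451 tested genes. H2-Aa, an MHC class II chain, had an estimate of -0.07 ± 0.61 and read lowest in Merkel het CLE 4 and littermate 4. Of 11 MHC class I genes, 9 were negative and none passed; Tap1, the peptide transporter, came closest (-0.85 ± 0.28, adjusted p = 0.0635). Of 13 Toll-like and NOD-like receptor genes none passed. Tlr1 was estimated at 1.95 ± 0.63, and Tlr9, whose genotype differed between mice, at 0.00 ± 0.56. Tlr9 read 55.8 and 39.2 units in the wild-type Merkel het CLE mice and 46.4 and 27.4 units in the knockout ones, all above background. The sources used here do not place its probe inside or outside the deleted part, so these values do not check the genotype. Of 13 B cell genes none passed, and Cd79a exceeded background in 0 of the 12 libraries. The 1 measured gene of the Merkel cell list, Ncam1, which nerves also express, was estimated at 0.68 ± 0.34 and did not pass.

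In 19 tested genes of the NF-κB pathway, Bcl3 and Tnfaip6 rose and Traf2 fell, while the subunit genes Nfkb1 (-0.07 ± 0.20) and Rela (-0.06 ± 0.19) did not pass. Relb was lower in estimate (-0.81 ± 0.26, adjusted p = 0.0596). The median of the list was -0.10, and 11.8% of all tested genes passed. Among adhesion genes 17 of 21 had positive estimates, against 230 of all 451 tested genes. Their median of 0.43 was 0.09 after median centring. The integrin gene Itga5 came close to the threshold (1.26 ± 0.41, adjusted p = 0.062).

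The Merkel het CLE mice differed among themselves, and Merkel het CLE 2 was most often the nearest to the littermates. Of the 22 rises, Merkel het CLE 1 was the highest of its group in 12, Merkel het CLE 3 in 7, Merkel het CLE 4 in 3 and Merkel het CLE 2 in 0. Merkel het CLE 2 was the lowest in 14 and Merkel het CLE 4 in 7. Of the 31 falls, Merkel het CLE 2 was the highest, and so nearest to the littermates, in 21, and Merkel het CLE 4 the lowest in 18. The disease scores of mice 1 to 4 were 3, 2, 2 and 2.5, and mice 1 and 2 were wild type for TLR9. The 2 libraries that led the rises had the largest gene counts, 682046 and 597547, against 387822 and 335693. They also had the lowest summed positive-control counts, 11490 and 11348, against 18290 to 32712 in the other libraries of the series. Only these 2 libraries held values at the floor of 1, with 3 and 2 such values. The part of score, genotype, depth and control counts in these ranks was not tested. With Merkel het CLE 1 and 3 left out, a choice made after seeing the data, 0 genes passed (64 with an unadjusted p under 0.05). The 22 rises then had a median of 2.01 and the 31 falls one of -1.37. All kept their sign, which the lack of overlap fixed in advance for 51 of the 53 genes.

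More of the rises than of the falls lay near background in 1 of the groups. All 22 rises were above background in every Merkel het CLE library but only 4 in every littermate, and 4 (Cxcr2, Clec4e, Il19 and Il6) in no littermate. Of the falls, 24 of 31 were above background in all 8 libraries. Setting all values below 116 units to that floor left 15 genes past the threshold, among them 2 of the 22 rises and 12 of the 31 falls. S100a8 and Nfil3 were the 2 rises. Subtracting background in each library instead gave 37 rises and 21 falls, 42 of them among the 53. With littermate 2 and CLE 1 left out, also after seeing the data, 45 genes passed, 25 higher and 20 lower.

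The reference genes, which were not tested, also differed. Sdha, a mitochondrial enzyme, was lower by a log2 difference of -1.02 and Oaz1 by -0.59 in Merkel het CLE skin, while Ppia, G6pdx, Tubb5 and Gusb were higher by 0.84, 0.84, 0.82 and 0.75. The other 6 lay between -0.12 and 0.07. Sdha read 815 to 1311 units in Merkel het CLE skin and 1694 to 2494 units in littermates, without overlap. Scaling to the reference genes moved the median of all tested genes to -0.12, and centring each library on its median moved it to -0.33. All 53 genes kept their sign under both.

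**Figure D5:**
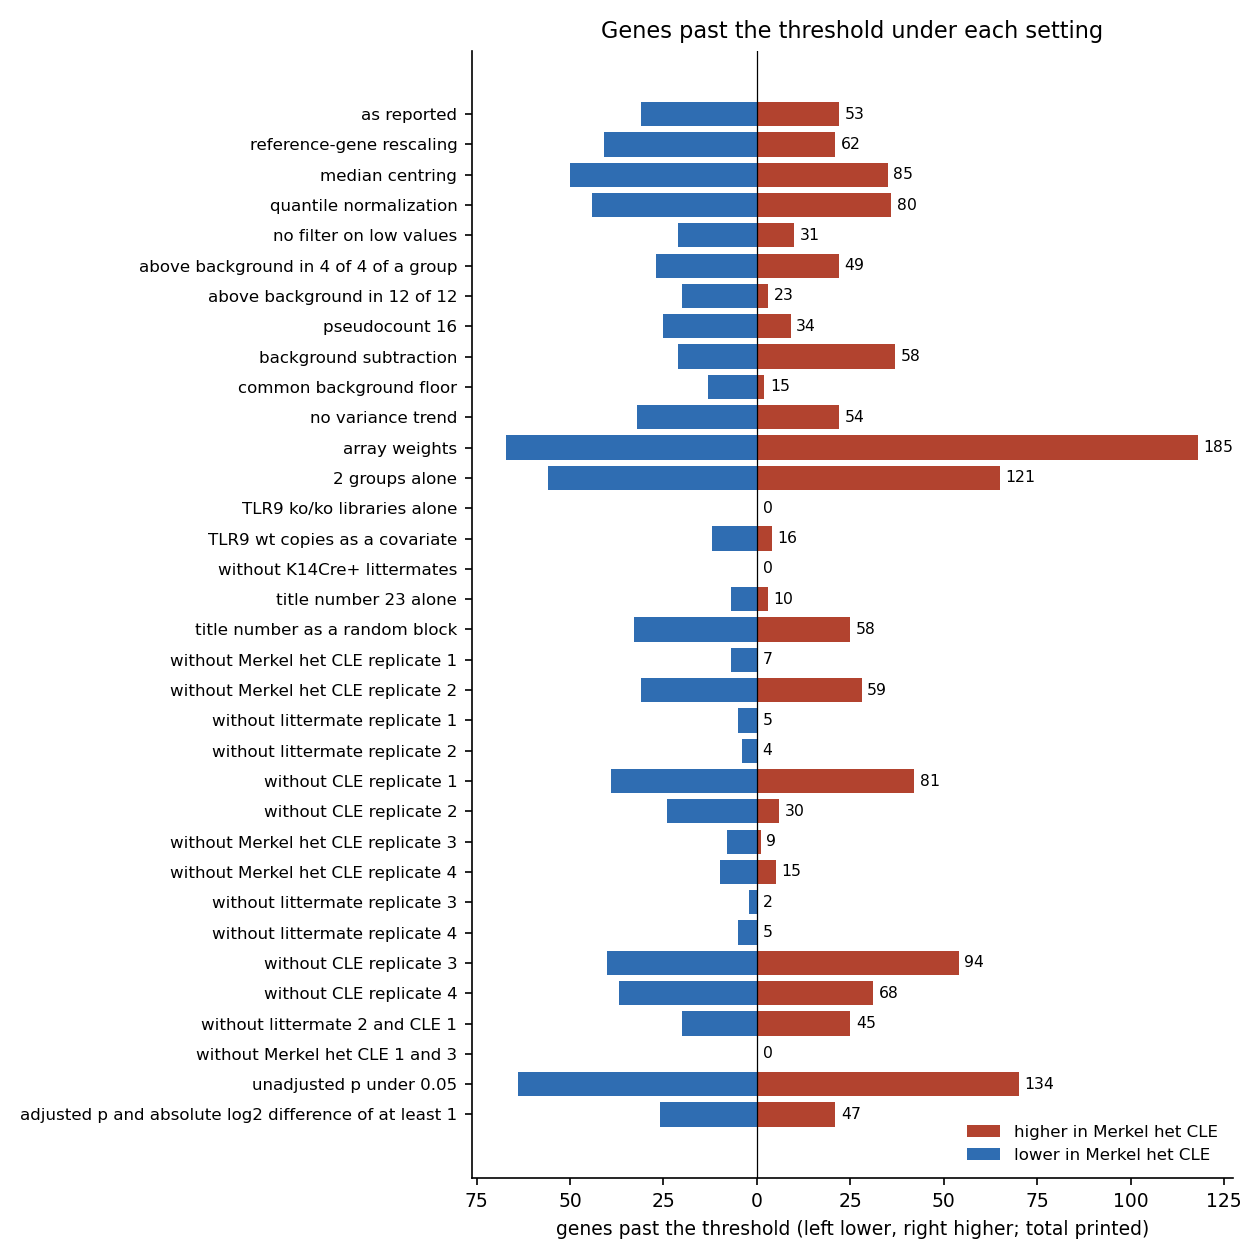
Number of genes past the threshold under each setting of the fit, with falls drawn left of 0 and rises right of 0 and the total printed. The count is 53 as reported, 121 when the 2 groups are fitted alone, 185 with array weights, and 2 to 15 when any 1 library other than Merkel het CLE 2 is left out of the 2 groups.

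Against the CLE mice, which also carry the autoantigen, 1 of 451 genes passed (0.222%), and 87 had an unadjusted p under 0.05 (19.3%), of which 75 were lower in Merkel het CLE. The gene was Prf1, which read 33.4, 32.1, 40.5 and 33.7 units in CLE 1 to 4. Only CLE 3 and 4 exceeded their thresholds of 33.8 and 21.6 units, while those of CLE 1 and 2 were 106 and 53.2 units, and Merkel het CLE 1 to 4 were all below theirs. The fitted log2 difference was -1.97, and it was -0.64 with the Merkel het CLE libraries at their thresholds, so its size is not settled. It did not pass with values floored at 116 units, nor without Merkel het CLE 1, 3 or 4 or CLE 2. Leaving out Merkel het CLE 2, CLE 3 or CLE 4 gave 7, 28 and 7 genes, all lower, and leaving out littermate 2 or CLE 1 gave 2. For the other genes of the littermate comparison the values side by side were as follows, with averages in units ± SD between mice. Il12rb2 averaged 167 ± 143 units in CLE, between the 20.3 ± 14.8 of Merkel het CLE and the 600 ± 94.6 of littermates, and differed from CLE by -2.58 (-4.14 to -1.03, adjusted p = 0.0931). Il6 averaged 50.5 ± 36.9 units in CLE, 2.42 below Merkel het CLE on the log2 scale (0.56 to 4.28, adjusted p = 0.203). S100a8 differed from CLE by 1.65 (-1.34 to 4.64), and Tgfb2 by -0.09 (-0.91 to 0.73). In 35 of the 53 genes the interval for Merkel het CLE against CLE included 0. The CLE mice had disease scores from 1 to 3.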

How the data were processed

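RNA from frozen skin was hybridised to a NanoString mouse immunology panel after extraction with Qiagen RNeasy columns, per the labels' protocols. The deposited signal of each of 561 gene probes is a barcode count times 1 factor per library: 100% of values above a floor of 1 lay within 0.02 units of a multiple of 1 step in all 12 libraries, and 5 values lay at the floor. The sources used here do not say how the authors set the factor. The 14 control probes (6 positive, 8 negative) hold unscaled counts.

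Groups follow the sample labels, also where the series text differs (it gives every group as lacking TLR9, and the Merkel het mice as without Merkel cells where the labels give a partial loss). Replicate numbers follow accession order. Gene names came from RefSeq (549 of 561 probes matched). Genes above the mean plus 2 SD of the negative controls in at least 4 of 12 libraries were tested; 98 others did not reach this and 12 reference genes were left out. Differences on the log2(value + 1) scale were fitted in limma 3.58.1 under R 4.3.3, with group means over all 12 libraries, a variance trend and Benjamini-Hochberg adjustment over 451 genes. The code was tested on simulated data. Log2 differences of low genes include background on this scale, and may be understated or overstated. The mean of the negative controls was 9.66 to 15.2 units in the Merkel het CLE libraries. It was 12.3 to 14.9 units in littermates 1, 3 and 4 and 50.0 units in littermate 2. Library depth, 99297 to 682046 gene counts, limits precision near background.

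The comparison, gene lists, tests and naming rule were chosen with earlier results of these data known. Every gene past the threshold may be named. Values in every library are given for the 10 largest rises and the 10 largest falls without overlap, and for each list described up to 4 passing members, or, with none, the 3 of lowest unadjusted p. Some genes covered by this rule are left out here. Tlr9 and Merkel cell genes are named where measured. Other genes given as values without a call, and lists given in full by library, were picked after their values were seen. Promoter windows are from RefSeq (GRCm38.p6). Figures were drawn with Python 3.11.15 and matplotlib 3.10.9. Alternatives changed the scaling, filter, pseudocount, background, weights, samples and covariates.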

Additional observations from a re-analysis of the deposited data

Results flagged for a closer look

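In 106 groups of 4 libraries of the genes past the threshold, 5 had 1 library far from the other 3, where chance alone flags about 1 in 20. Irf4 in Merkel het CLE 2 read 79.3 units, against 43.9 to 46.5 in the other 3. Gata3 in Merkel het CLE 1 read 1328.59 units, against 2011.39, 2170.48 and 2148.41. The other 3 were in the high-background littermate 2, with Il6ra at 1900.43 units (others 1593.87 to 1622.23), Pdgfb at 873.39 (others 701.14 to 723.01) and Il6 at 56.61 (others 16.2 to 19.36, all 4 below background). Merkel het CLE and CLE skin differed in 1 gene by the test of the difference itself, Prf1, at a log2 difference of -1.97, with Prf1 below background in every Merkel het CLE library and in 2 of the 4 CLE libraries.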

How the results depend on the processing

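Against 53 genes as reported, the count was 85 with median centring, 80 with quantile normalization, 31 with no filter on low values, 23 (3 rises) among the 260 genes above background in all 12 libraries, 34 with a pseudocount of 16 and 15 with a common floor of 116 units. It was 185 with array weights, 121 with the 2 groups fitted alone, 16 with TLR9 wild-type copies as a covariate, 10 in the mice of title number 23 alone, 0 in TLR9ko/ko mice alone (77 at an unadjusted p under 0.05), 0 without K14Cre+ littermates (85) and 0 without Merkel het CLE 1 and 3 (64). Leaving out 1 library gave 2 to 94, and 134 genes had an unadjusted p under 0.05. Fewer mice enter several of these fits; otherwise the cause was not tested. Rescaling on reference genes (62), background subtraction (58, with 37 rises and 21 falls), no variance trend (54) and title number as a random block (58, consensus correlation 0.213) stayed within 1.5 times. The split moved towards rises with background subtraction, array weights (118 rises, 67 falls) and the 2 groups alone (65 and 56), and towards falls with the pseudocount of 16 (9 rises, 25 falls), the common floor (2 and 13) and the filter on all 12 libraries (3 and 20). No gene of the 53 changed sign under any setting. For 51 of them the lack of overlap fixed this in advance wherever mice were only left out. At the common floor, 5 falls (Prf1, Il12a, Cd3d, Tnfsf18 and Tnfsf15) became 0.

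The count of genes against CLE was 1 as reported, 0 with the common floor (56 at an unadjusted p under 0.05), 0 to 28 leaving out 1 library, and 87 at an unadjusted p under 0.05. A planned count model, edgeR's quasi-likelihood test, was not run because the deposited columns mix scaled gene values, values at a floor and unscaled controls, and so are not columns of counts. No paired analysis was possible because the labels number no replicates within groups; title numbers, of which 23 spans both groups, entered as the block above. Values near background, and all of littermate 2, are limited by depth.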
